A study of Mus musculus with 6 samples.

Results

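Potassium channel genes were taken as the probe sets whose single gene symbol on the platform starts with Kcn, without the imprinted transcript Kcnq1ot1. They were 83 genes with 161 probe sets, of 18193 genes with 1 symbol and 45037 probe sets in all. The tissues of untreated male C57BL/6 mice, 10 to 12 weeks old and kept at ambient temperature, that were compared were interscapular brown adipose tissue on 3 arrays and epididymal white adipose tissue on 3 arrays. No allele or agent was named for any group. The tissues came from 3 mice, per the series' design text, and each sample had its own 1-colour Affymetrix 430_2 array. All brown fat came from one depot and all white fat from another, so fat type and depot cannot be told apart. Whole tissue was used, so that fewer cells of a type and less RNA per cell cannot be told apart.

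Potassium channels let potassium ions leave or enter a cell along their gradient and so set its resting membrane potential. Many inward rectifiers and two-pore-domain channels are open at rest, voltage-gated channels open on depolarisation, and calcium-activated channels open when calcium rises. Auxiliary subunits alter the gating of these pores. In brown fat, noradrenaline from sympathetic nerves depolarises the adipocyte while it starts heat production, and the two-pore-domain channel encoded by Kcnk3 is known from brown adipocytes, where it counters that depolarisation.

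The labels were checked first. Ucp1, the uncoupling protein of brown fat, had signals of 13251, 12788 and 12788 on the brown arrays and of 62.5, 4.58 and 11.2 on the white arrays. Lep, the white fat hormone leptin, had signals of 67.2, 32.1 and 63.2 in brown and of 1762, 1731 and 1735 in white. All 6 brown adipocyte markers were called present on every brown array, and all 5 white adipocyte markers on every white array. Probe sets called present made up 35.6 to 37.5% of each brown array and 45.2 to 45.8% of each white array. The ratio of the actin control probe sets at the 3' and 5' ends, which rises as RNA breaks down, lay between 1.19 and 2.24, with the top value on brown replicate 2. Signals here are quantile-normalised intensities on a linear scale, and differences are brown minus white on the log2 scale, with limma's standard error (SE). P-values measure the spread among these 3 samples per tissue.

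Most potassium channel genes were not detected in either fat. Of the 83 genes, 49 had no probe set called present on any array, and 11 had one called present on all 6 arrays. A single array detected 17 to 20 of the genes in brown and 20 to 23 in white. A gene was tested where a probe set had 3 or more present calls among the 6 arrays. This left 20 channel genes (24.1%), against 56.4% of all genes. On all 3 arrays of a tissue, 14 genes (16.9%) were detected in brown and 16 (19.3%) in white, against 44.0% and 52.7% of all genes. Kcnk3 was the 1 gene detected on all 3 brown arrays and on no white array. The reverse held for Kcnj15, Kcnd1 and Kcnab1. These calls come from the deposited detection values and do not depend on the scaling of the signals.

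**Figure D1:**
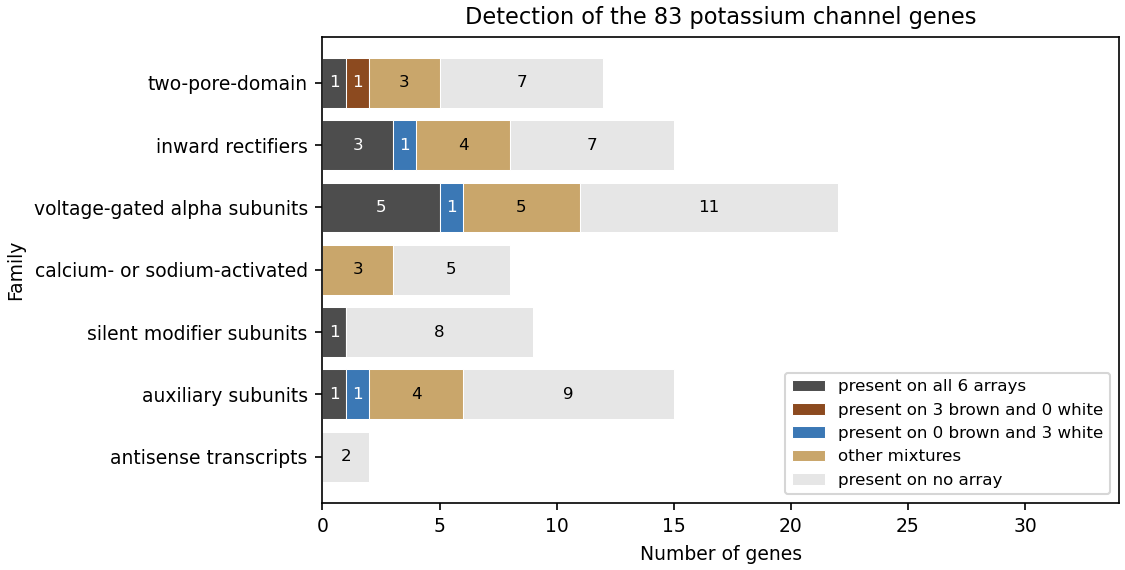
Number of potassium channel genes (horizontal axis) in each family (vertical axis), split by the arrays on which a probe set of the gene was called present. The pale segments, present on no array, add up to 49 of 83 genes, and Kcnk3 is the single gene present on 3 brown and 0 white arrays.

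The undetected genes were spread over the families. All 8 genes grouped by symbol as calcium- or sodium-activated channels fell short of that minimum. Among them were Kcnma1, the large-conductance pore, present on 1 white array, and Kcnn2, a small-conductance pore, present on 1 brown array. Kcnn4, the intermediate-conductance pore of immune and red blood cells, was present on none. The 2 antisense transcripts named after Kcnmb4 and 8 of 9 silent modifier subunits, which form no channel of their own, were present on no array. Kcnj2, a strong inward rectifier of heart and muscle, Kcna3, a channel of lymphocytes, and Kcnq1 with its partner Kcne1 were present on none. The tissue means of the 63 untested genes ran from 2.14 to 163 signal units.

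Brown and white fat differed in 8 of the 20 potassium channel genes that could be tested. Higher in brown were 5, namely Kcnk3, Kcnh1, Kcnj3, Kcnh3 and Kcna1. Higher in white were 3, namely Kcnj15, Kcnk2 and Kcnk6. Over all 10264 genes tested with limma at an adjusted p under 0.05, 28.2% were higher in brown and 32.7% in white, 61% together. The median difference was 0.21 over the 20 tested members and -0.04 over all genes tested. Kcnk3 and Kcnj15 passed the filter only through the tissue where they are high, so their calls are not independent of it. Among the genes not called, Kcnd1 and Kcnab1 passed it through white alone, with signals that overlapped between the tissues. With the deposited scaling, where the median of all genes tested was -0.50, the brown side held 4 calls and the white side 9. Spike-in scaling also had a median of -0.50, with 4 calls towards brown and 8 towards white. Without brown replicate 3 there were 5 higher in white, because Kcnd3 (-0.93, limma adjusted p = 0.0156) and Kcns3 (-0.87, 0.0194) were then called. All 8 called genes stayed past the threshold without any 1 of the 6 arrays.

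**Figure D2:**
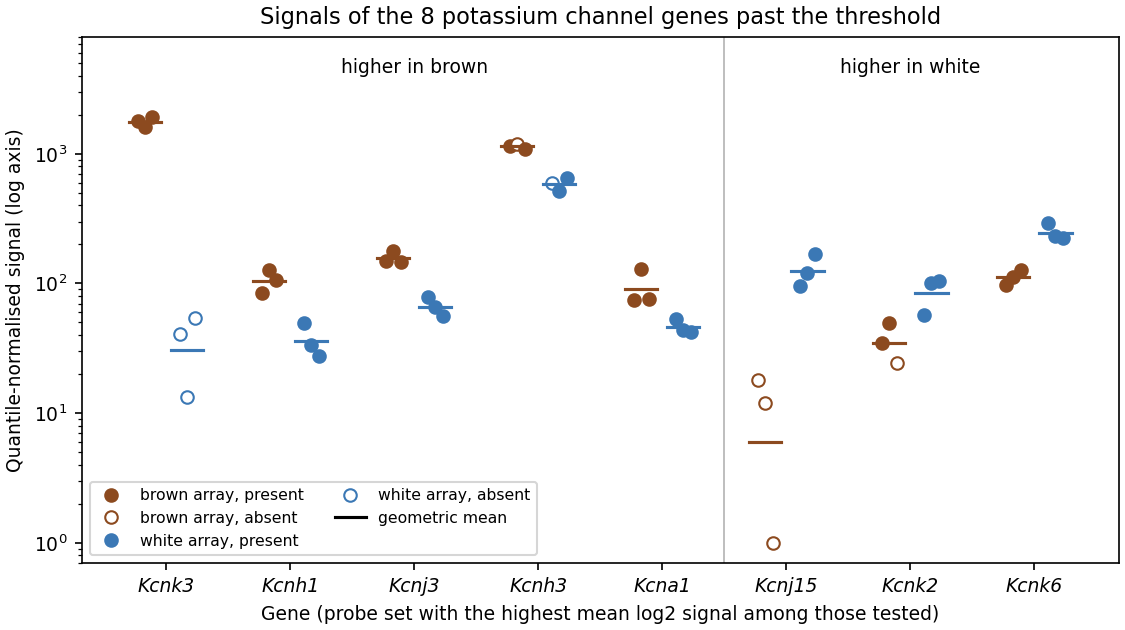
Quantile-normalised signal (log axis) of each array for the 8 genes past the threshold, brown arrays to the left and white arrays to the right of each gene, with filled points for present calls, open points for absent calls and a bar for the geometric mean of 3 arrays. The tissues do not overlap for any of the 8, and the white arrays of Kcnk3 and the brown arrays of Kcnj15 are all open.

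The two-pore-domain family, the leak channels that hold the resting potential, had 12 genes, of which 3 were tested and all 3 differed, beside 61% of all genes tested. Kcnk3 passed the filter through brown alone. Kcnk3 encodes the acid-sensitive leak channel TASK-1. Its signals were 1807, 1608 and 1919 on the brown arrays, all called present, and 40.5, 13.2 and 54.6 on the white arrays, all called absent. Every brown array was far above every white array, and the ratio of geometric means was at least 57.5-fold (log2 difference 5.85, SE 0.42, limma adjusted p = 1.19e-06). Its other 2 probe sets gave the same picture, with at least 119-fold (658, 351 and 672 in brown) and at least 37.5-fold (333, 427 and 409 in brown). All their white arrays were called absent, at signals of 3.07 to 22.9. Leaving out 1 array at a time moved the log2 difference of Kcnk3 between 5.26 and 6.27.

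The other 2 tested leak channels were higher in white. Kcnk6 encodes TWIK-2, a weakly rectifying member of the family. It had signals of 98.1, 112 and 128 in brown and of 291, 233 and 222 in white, present on all 6 arrays (log2 difference -1.14, SE 0.16, limma adjusted p = 0.000129). The tissues did not overlap. Kcnk2 encodes TREK-1, a leak channel gated by stretch, heat and lipids. Its signals were 34.9, 49.8 and 24.2 in brown, the last called absent, and 57.2, 100.1 and 104.5 in white (-1.28, SE 0.33, limma adjusted p = 0.0074). The lowest white array lay close above the highest brown array. Of the 9 untested two-pore genes, Kcnk1 and Kcnk16 were called present on 1 white array each and Kcnk4, Kcnk5, Kcnk7, Kcnk10, Kcnk12, Kcnk13 and Kcnk15 on none.

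Inward rectifiers, which pass potassium more readily into the cell than out of it, had 15 genes and 5 tested. Of these 1 was higher in each tissue, beside 28.2% of all genes tested in brown and 32.7% in white. Kcnj3 encodes a G protein-gated subunit, opened by receptors that couple to inhibitory G proteins. It had signals of 149, 177 and 145 in brown and of 78.9, 65.7 and 56.3 in white, all called present (log2 difference 1.24, SE 0.18, limma adjusted p = 0.000183). The tissues did not overlap. Its other 3 probe sets were absent on all arrays. Kcnj6, another G protein-gated subunit, had 71.6, 83.9 and 71.0 in brown and 57.9, 48.7 and 55.8 in white, and was not called (0.48, limma adjusted p = 0.0542) although its arrays did not overlap. It was called with 64 signal units added (limma adjusted p = 0.0468), with the mean of probe sets (0.0385) and without the trend (0.0141), and its difference was -0.01 with the deposited and the spike-in scaling. Kcnj5 and Kcnj9, the remaining subunits of this group, were present on 1 white array and on no array.

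Kcnj15, an inward rectifier of kidney and other epithelia, was detected in white alone. Its signals were 18.0, 11.9 and 0.998 in brown, all called absent, and 96.1, 121 and 168 in white, all called present. The ratio of geometric means was at least 10.0-fold towards white (log2 difference -4.39, SE 0.91, limma adjusted p = 0.00203). The lowest brown signal is near the bottom of the array's range, and the bound does not rest on it. A second probe set had 41.7, 29.3 and 54.7 in white and 1.65 to 6.79 in brown. The remaining probe set had 28.4, 19.2 and 33.6 in brown against 56.0, 49.3 and 45.4 in white, without overlap. By mean log2 signal over all arrays it is the brightest of the 3 and stands for the gene when no detection filter is used, and Kcnj15 then lost its call (-0.92, limma adjusted p = 0.0613). Markers of mesothelium and epididymis moved with Kcnj15: all 5 were higher in white, their summed signal was 101 to 135 on the brown arrays and 2633 to 2786 on the white arrays, and Msln, Upk3b, Krt19 and Slpi were present on no brown array. All 8 macrophage markers were higher in white as well, with sums of 2609 to 3092 in brown and 18083 to 18833 in white. Fibroblast and progenitor markers, all 5 higher in white, had sums of 3840 to 4362 in brown and 22157 to 22734 in white. Endothelial markers had sums of 1496 to 1685 in brown and 2221 to 2297 in white. Of these 5 markers, 4 were higher in white and Kdr was not called (0.04, limma adjusted p = 0.765). The part of these cells in the differences of Kcnj15, Kcnk2 and Kcnk6 was not tested.

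The windows before the annotated starts of Kcnj3, Kcnh1 and Kcnj15 are shown because these genes are called members with a single RefSeq start, 2 of them higher in brown and 1 higher in white. Of the 83 genes, 63 had a window in the RefSeq promoter table of build GRCm38.p6, with 88 windows in all. Each sequence is the 250 bases before the start, 5′ to 3′ on the plus strand. Capitals mark matches, on either strand, to the letters TATAAA of the core promoter box of that name, to CCAAT of the box bound by nuclear factor Y, to GGGCGG of the GC box, to TGACGTCA of the cAMP response element and to AGGTCA of the nuclear receptor half-site.
Kcnj3 (chr2:55435720-55435969): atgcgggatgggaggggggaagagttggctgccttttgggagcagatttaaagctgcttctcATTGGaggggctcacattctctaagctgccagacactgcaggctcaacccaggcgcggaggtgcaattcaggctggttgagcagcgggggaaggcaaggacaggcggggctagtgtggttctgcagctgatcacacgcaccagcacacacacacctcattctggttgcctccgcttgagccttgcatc
Kcnh1 (chr1:192190527-192190776): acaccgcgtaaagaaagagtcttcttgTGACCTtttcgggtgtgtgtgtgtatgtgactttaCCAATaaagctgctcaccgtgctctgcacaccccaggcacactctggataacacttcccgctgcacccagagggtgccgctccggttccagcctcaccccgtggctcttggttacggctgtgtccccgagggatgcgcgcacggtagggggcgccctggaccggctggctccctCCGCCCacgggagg
Kcnj15 (chr16:95257308-95257557): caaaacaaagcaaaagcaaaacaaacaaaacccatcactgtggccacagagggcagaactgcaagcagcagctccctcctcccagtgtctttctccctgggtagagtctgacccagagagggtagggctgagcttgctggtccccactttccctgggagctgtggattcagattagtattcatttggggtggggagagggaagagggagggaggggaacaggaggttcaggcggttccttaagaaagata
The window of Kcnj3 held 1 CCAAT match. That of Kcnh1 held 1 CCAAT match, 1 GC box and 1 half-site, and that of Kcnj15 held none of the 5. Among all 32851 RefSeq windows of this length 33.8% held CCAAT, 32.7% a GC box, 14.0% the half-site, 12.4% the letters TATAAA and 1.55% the cAMP response element. Among the 88 windows of the channel genes the shares were 29.5%, 45.5%, 5.68%, 3.41% and 0%. Several windows can belong to 1 gene. The median GC content was 58.8% in the windows of the channel genes and 52.4% in all windows. A match is a run of letters and not a site of binding.

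The pores of the ATP-sensitive potassium channel, which closes when the cell's ATP rises, were detected at similar signals in both fats. Kcnj11 had 500, 468 and 501 in brown and 400, 462 and 429 in white. Its other probe set was absent on all arrays, with means of 22.2 in brown and 20.9 in white. Kcnj8, the form of blood vessels, had 311, 360 and 306 in brown and 299, 280 and 254 in white. Neither passed the test after quantile normalisation (Kcnj11 0.19, SE 0.09, limma adjusted p = 0.0986; Kcnj8 0.23, SE 0.11, limma adjusted p = 0.103), although brown and white signals were fully apart for both. With the deposited scaling Kcnj11 was called the other way (-0.24, limma adjusted p = 0.0387), and Kcnj8 had -0.26 (limma adjusted p = 0.0568), so the direction of both turns with the scaling.

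This channel also needs a sulfonylurea receptor, and the 2 receptor genes differed in detection. Abcc9, which lies next to Kcnj8 in the RefSeq order of genes, was present on all 6 arrays, with 583, 840 and 563 in brown and 723, 600 and 693 in white (-0.04, SE 0.15, limma adjusted p = 0.823). The tissues overlapped. This probe set is of the type prone to cross-hybridisation, and without such probe sets Abcc9 was called higher in white (-0.43, limma adjusted p = 0.00288). It was also called higher in white with the deposited scaling (-0.43, limma adjusted p = 0.0259). Abcc8, the receptor of pancreatic beta cells and the neighbour of Kcnj11, was called absent on all 6 arrays. Smooth muscle and pericyte markers had summed signals of 4866 to 5060 in brown and 5985 to 6317 in white, with 3 of 7 higher in brown and 4 in white. Their part in the signals of Kcnj8 and Abcc9 was not tested.

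Voltage-gated alpha subunits, the pores that open on depolarisation, had 22 genes and 8 tested. In brown 3 of these were higher, and in white 0 (5 did not pass the test), beside 28.2% and 32.7% of all genes tested. Kcnh1 encodes the ether-a-go-go channel, known from brain and from dividing cells. Its signals were 83.7, 127 and 106 in brown and 49.7, 33.6 and 27.5 in white, present on all 6 arrays (log2 difference 1.54, SE 0.27, limma adjusted p = 0.000711). Its second probe set was absent on all arrays. Kcnh3, a related channel of forebrain neurons, had 1148, 1193 and 1085 in brown and 596, 520 and 654 in white (0.96, SE 0.09, limma adjusted p = 1.17e-05). The tissues did not overlap for either gene. In spite of its high signal Kcnh3 was called absent on brown replicate 2 and on white replicate 1, and a second probe set, of the type prone to cross-hybridisation, had 888, 601 and 489 against 281, 244 and 416, with brown replicate 2 again called absent. Its remaining probe sets were absent on all arrays and ran in opposite directions. Their means were 25.1 in brown and 44.6 in white, and 22.0 in brown and 8.55 in white. The identity of the transcript behind Kcnh3 is therefore uncertain.

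Kcna1, a delayed rectifier of axons, had signals of 74.1, 130 and 76.1 in brown and of 53.2, 43.9 and 42.6 in white (log2 difference 0.96, SE 0.25, limma adjusted p = 0.00849). Brown replicate 2 stood above the other brown arrays, and all brown arrays lay above all white arrays. Another probe set of Kcna1 that was also tested gave 0.20 (limma adjusted p = 0.67). The call was lost with the deposited scaling (0.47, limma adjusted p = 0.119), with spike-in scaling (0.47, 0.149) and with the mean of its probe sets (0.58, 0.0899). Markers of Schwann cells and nerve had summed signals of 923 to 1015 in brown and 280 to 297 in white, with 2 of 4 tested markers higher in brown and 1 in white, and Prph present on no array. Most of the gap came from S100b, with 614, 551 and 537 in brown and 20.5, 16.4 and 29.9 in white, while Sox10 was not called (0.39, limma adjusted p = 0.11) and Uchl1 was higher in white. Their part in the difference of Kcna1 was not tested.

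The other 5 tested voltage-gated genes did not pass the test after quantile normalisation, but with the deposited scaling Kcna5 (-0.69), Kcnd1 (-1.18) and Kcnd3 (-1.11) were called higher in white. Kcna5, a delayed rectifier of heart and vessel muscle, had 158, 136 and 124 in brown and 152, 161 and 148 in white, and the tissues overlapped (-0.15, limma adjusted p = 0.389). Kcnd1 and Kcnd3, pores of the fast transient current, had differences of -0.71 (limma adjusted p = 0.0753) and -0.63 (0.098). Kcnd1 was absent on all 3 brown arrays and present on all 3 white arrays, and passed the test without brown replicate 1 (-1.03, 0.0132). Another probe set of Kcnd1 that was also tested gave -0.08 (limma adjusted p = 0.872). With the mean of its probe sets the gene had -0.40 (limma adjusted p = 0.293). Kcna2 had 0.86 (limma adjusted p = 0.225). It passed without brown replicate 1 (1.54, 0.0076), the array on which its signal was 10.4 against 43.2 and 41.8 on the other brown arrays. Kcna6 had 0.53 (limma adjusted p = 0.105) and passed without brown replicate 2 (0.70, 0.0436). Its other tested probe set gave 0.26 (limma adjusted p = 0.472). In the RefSeq gene order Kcna5, Kcna1 and Kcna6 follow one another, and 1 of these 3 was called.

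**Figure D3:**
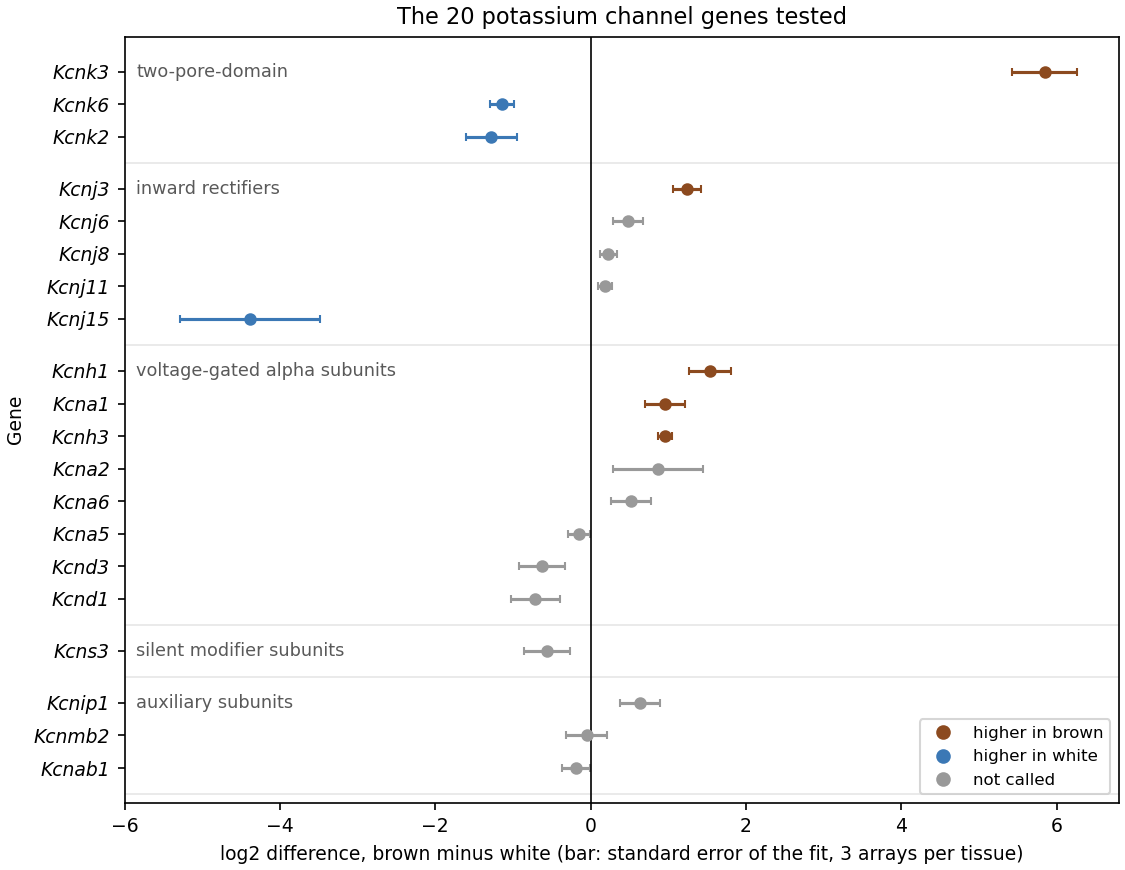
Log2 difference (brown minus white, horizontal axis) with the standard error of the fit for the 20 tested potassium channel genes, grouped by family on the vertical axis and coloured by call. Kcnk3 at 5.85 and Kcnj15 at -4.39 stand at the ends, and the 12 grey genes lie between -0.71 and 0.86.

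No auxiliary or modifier subunit passed the test, although with the deposited scaling Kcnab1 (-0.72) and Kcns3 (-1.09) were called higher in white. Of 15 auxiliary genes 3 were tested. Kcnip1, a calcium-binding partner of the transient-current channels, had 82.6, 67.9 and 129.5 in brown and 56.1, 50.8 and 67.8 in white (0.64, SE 0.26, limma adjusted p = 0.0553), with the lowest brown array just above the highest white array. It was called without brown replicate 2 (0.85, 0.0166). With the replicate number as a block in the fit Kcnip1 was called too (limma adjusted p = 0.0318), as it was with probe sets present on all 6 arrays (0.0406), with 64 signal units added (0.0481) and with the mean of probe sets (0.0498). Kcnmb2, a beta subunit of the large-conductance calcium-activated channel, had a difference of -0.05 (limma adjusted p = 0.88) and Kcnab1, a beta subunit of voltage-gated channels, of -0.19 (0.39). Kcnab1 was called present on the white arrays alone, at 95.5, 99.6 and 89.5 against 79.3, 101 and 71.2 on brown arrays called absent, so that detection differed where the signals overlapped. The 1 modifier tested, Kcns3, had 73.6, 54.5 and 120 in brown and 133, 138 and 84.6 in white (-0.56, limma adjusted p = 0.131), with overlap.

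Brown and white arrays were fully apart for 13 of the 20 tested channel genes, 10 with the higher signals in brown and 3 in white. Over all genes tested, 67.3% were apart, 31.3% with the higher signals in brown and 36% in white. Differences of at least 2-fold past the threshold were found for 3 members in brown and 3 in white, against 10.9% and 14.4% of all genes tested. When every gene was tested without regard to detection, 10 of the 83 were called towards brown and 7 towards white, against 18.6% and 19.2% of 18193 genes. Kcnj15 was no longer among them, and most of the members this added had no present call on any array.

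Other genes of potassium transport went both ways. Of 38 listed genes outside the channel genes, 31 were on the array under 1 symbol and 15 were tested, of which 7 were called towards brown, 4 towards white and 4 in neither direction, beside 28.2% and 32.7% of all genes tested. Their median difference was -0.04. With the deposited scaling the calls were 4 and 6. The differences of at least 1 on the log2 scale were both towards white. Fxyd2 is a regulator of the sodium pump first known from kidney. It had 12.3, 12.1 and 18.5 in brown, all absent, and 87.5, 74.2 and 78.6 in white, at least 5.70-fold. This probe set is of the type prone to cross-hybridisation. Without such probe sets the log2 difference of Fxyd2 was -4.31 (limma adjusted p = 0.00183), so its size depends on the probe set. Slc12a4, a potassium chloride cotransporter, had 51.3, 44.9 and 69.3 in brown, all absent, and 132, 140 and 142 in white, at least 2.55-fold. Neither gene's arrays overlapped, and both passed the filter through white alone, so that their calls are not independent of the filter.

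The smaller called differences towards brown were those of Tmem38b, an intracellular potassium-conducting channel of the endoplasmic reticulum (0.92), the sodium pump subunits Atp1b3 (0.80) and Atp1b2 (0.62), the pump regulators Fxyd4 (0.82) and Fxyd1 (0.40), and the cotransporters Slc12a7 (0.80) and Slc12a2 (0.42). Towards white were Atp1b1 (-0.67) and Fxyd5 (-0.70). Among the pump's beta subunits the direction differed, with 2 called towards brown and 1 towards white. The calls of Atp1b2, Fxyd4 and Slc12a2 were lost with the deposited and the spike-in scaling, and that of Fxyd1 with spike-in scaling (0.20, limma adjusted p = 0.162). Atp1b1 was not called with the mean of its probe sets. Slc12a2 also lost its call without brown replicate 2 (0.30, limma adjusted p = 0.0741) or white replicate 1 (0.30, 0.0824).

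**Figure D4:**
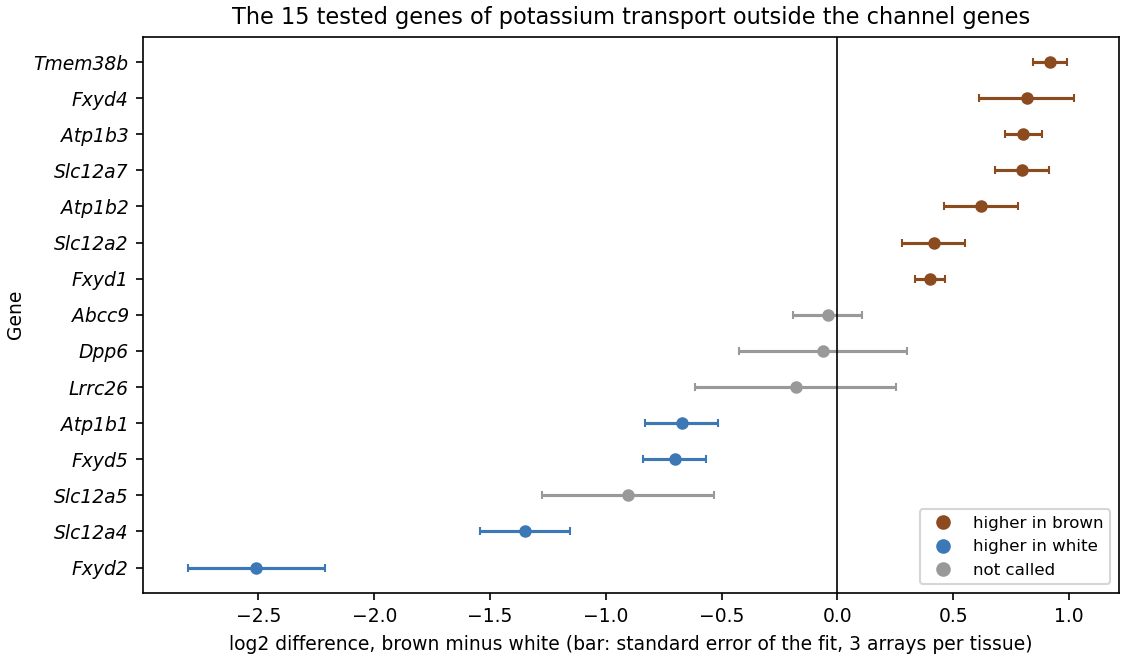
Log2 difference (brown minus white, horizontal axis) with the standard error of the fit for the 15 tested genes of potassium transport outside the channel genes (vertical axis), coloured by call. Fxyd2 at -2.51 and Slc12a4 at -1.35 lie farthest from zero, and the 7 genes higher in brown lie between 0.40 and 0.92.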

How the data were processed

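Expression was measured on 6 Affymetrix 430_2 arrays, 3 of interscapular brown and 3 of epididymal white fat, grouped by the sample titles. Per the file headers, the deposited array files give a signal intensity, a detection call and a detection p-value per probe set. Software version, scaling and genome build are not stated in these sources. The authors' deposited value table of the series, also a linear intensity, was used only as a check: its brown columns correlated at 0.871 to 0.887 with the white array files and at 0.800 to 0.809 with the brown ones (Spearman), and Ucp1 and Lep run opposite to their known tissues there, so its tissue columns are reversed against the array files. Of 45101 probe sets, 64 controls were left out. The 2% trimmed means of the arrays spread by 37.2%, so log2 signals were quantile-normalised, with 1 signal below 0.1 set to 0.1. Probe sets present on at least 3 of 6 arrays (19819) were fitted with limma 3.58.1 in R 4.3.3 (lmFit, eBayes with trend). For each of 10264 genes the brightest probe set was kept and p-values were adjusted by Benjamini-Hochberg (threshold 0.05). A fold "at least" sets the brighter tissue's mean log2 signal against, per array of a tissue absent on all 3, the higher of the lowest present signal and the probe set's own. The fit was tested on simulated data. Members and lists were chosen with earlier results of these data known. Tested members were all named, with each array's value for called members that differed at least 2-fold and for others where it helps; other genes were named at a difference of at least 1 or as part of a described group. Same-numbered arrays of the tissues did not deviate together (correlations of 0.02, -0.01 and -0.05), and the arrays were treated as unpaired. With 3 arrays per tissue this cannot show that no mouse gave both fats. The design text names 3 mice for these 6 samples, so each mouse may have given both fats. Which arrays would then share a mouse is not stated, and the main p-values take no account of such a pairing. Alternatives in scaling, filter, probe set choice, test, replicate block and left-out arrays are given at the end. The number of arrays limits the precision: 3 against 3 cannot give an exact permutation p below 0.1.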

Additional observations from a re-analysis of the deposited data

How the results depend on the processing

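With the deposited scaling 9 channel genes were higher in white, and with spike-in scaling 8. The median of the tested channel genes was then -0.25 under either scaling, beside -0.50 over all genes tested. The other potassium transport genes higher in brown fell to 4 and 3. Kcnj11 turned with the deposited scaling (-0.24, limma adjusted p = 0.0387). Without a detection filter the channel genes gave 10 calls towards brown and 7 towards white, and Kcnj15 lost its call (-0.92, limma adjusted p = 0.0613). With probe sets present on all 6 arrays 1 channel gene and 2 other transport genes were higher in white; fewer genes were then tested. Leaving out 1 array at a time gave 5 to 7 channel genes higher in brown and 3 to 5 in white, a median of 0.18 to 0.24, and 6 to 7 and 4 to 5 other transport genes. With the replicate block 6 and 3 channel genes were called, Kcnip1 being added in brown; it changed no other call. Whether the numbers pair the arrays is not stated, and 1 of 3 brown arrays and 0 of 3 white arrays correlated best with the other tissue's array of the same number. Of 575 values of single genes under the alternatives, 529 kept direction and side of the threshold, or changed sign while not called; 30 gained a call, 15 lost one and 1 turned. For the rest the cause was not tested. The filter that asks for present calls on all 3 arrays of a tissue was added after the data were seen. Signal over background limits the 63 untested genes, for which a missing call is no evidence of absence.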
